A study of Mus musculus with 16 samples.

Results

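The tubular injury biomarkers are 10 genes whose mRNA or protein is read as a sign of damaged kidney tubule: Havcr1, Lcn2, Spp1, Clu, Vcam1, Vim, Lgals3, Cd44, Prom1 and Cd24a. They were listed by name and matched by symbol, but the choice was made with earlier results of these data known. Each of the 10 was found as a single entry among 23935 symbols. All are protein-coding, and their positions below are those of the mouse GENCODE annotation on GRCm38, the build of the submitters' notes. The study profiled total RNA of whole kidney from mice of wild-type genotype in 16 libraries, with 4 libraries given PBS, 4 cisplatin alone, 4 NMN and cisplatin, and 4 NR and cisplatin; the last groups are called NMN and NR here. Cisplatin, a platinum anticancer drug, injures the tubule, while nicotinamide riboside (NR) and its phosphorylated form nicotinamide mononucleotide (NMN) are made by cells into the cofactor NAD. Both precursors were given by injection ahead of cisplatin, and kidneys were taken 3 days after cisplatin; 12 of the 16 libraries therefore share the cisplatin exposure, and there was no group with a precursor alone. The sources used here give no dose, strain, sex or age. No label says that the libraries of a group came from separate animals, so p-values measure the spread between these libraries, which may be technical.

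When tubule cells are injured, the survivors lose transporters, spread over the bare basement membrane and switch on a repair program in which these genes take part. Havcr1 encodes KIM-1, a receptor on the apical membrane that binds phosphatidylserine on dying cells and is shed into urine. Lcn2 encodes NGAL, a secreted carrier of iron-binding siderophores, and both proteins are measured in urine as early markers of kidney injury. Other members are a secreted matrix ligand (Spp1), a secreted chaperone (Clu), adhesion and carbohydrate-binding proteins (Vcam1, Lgals3, Cd44), an intermediate filament (Vim) and surface proteins that mark scattered tubular cells in human kidney (Prom1, Cd24a).

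Values are TPM, a transcript level per length and per library total, so levels can be set side by side between genes, while the read depth behind them is unknown. The listed values of a library added up to 860428 to 903678 TPM. The 13 mitochondrially encoded mRNAs took 25.03 to 34.0% of it with PBS, 15.6 to 17.6% with cisplatin, 22.7 to 28.3% with NMN and 22.1 to 30.3% with NR. The 83 ribosomal protein genes took 5.66 to 6.91%, 15.5 to 17.4%, 7.20 to 9.48% and 7.52 to 10.2% in the same order. Between groups the mitochondrial share moved against the members and the ribosomal share with them, and the part of both in the results was not tested. Markers of the proximal tubule, the labelled tissue's main cell type, were all detected with PBS, where the 10 of them summed to between 5012 and 5522 TPM. Changes are differences of log2(TPM + 1), which understate the change of low genes, and calls were made where the adjusted p was under 0.05.

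All 10 members were higher with cisplatin than with PBS, and their groups of 4 libraries did not overlap. Among the 12960 genes tested, 40.7% were called higher and 35.3% were higher without overlap. All 10 were lower with NMN than with cisplatin alone and all 10 were lower with NR, again with no overlap. The background was 34% of genes called lower with NMN and 32.2% with NR, and 30.9% and 29.1% lower without overlap. With a precursor most members still exceeded PBS: 7 of 10 stayed higher than with PBS in both groups, against 5.89% of genes with NMN and 8.79% with NR. Those were Havcr1, Lcn2, Spp1, Clu, Lgals3, Cd44 and Cd24a, and none of them overlapped PBS, against 8.77% and 11.8% of genes higher without overlap. Vcam1, Vim and Prom1 were not called against PBS. The comparisons share their cisplatin or PBS libraries, so they are not independent of each other.

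**Figure D1:**
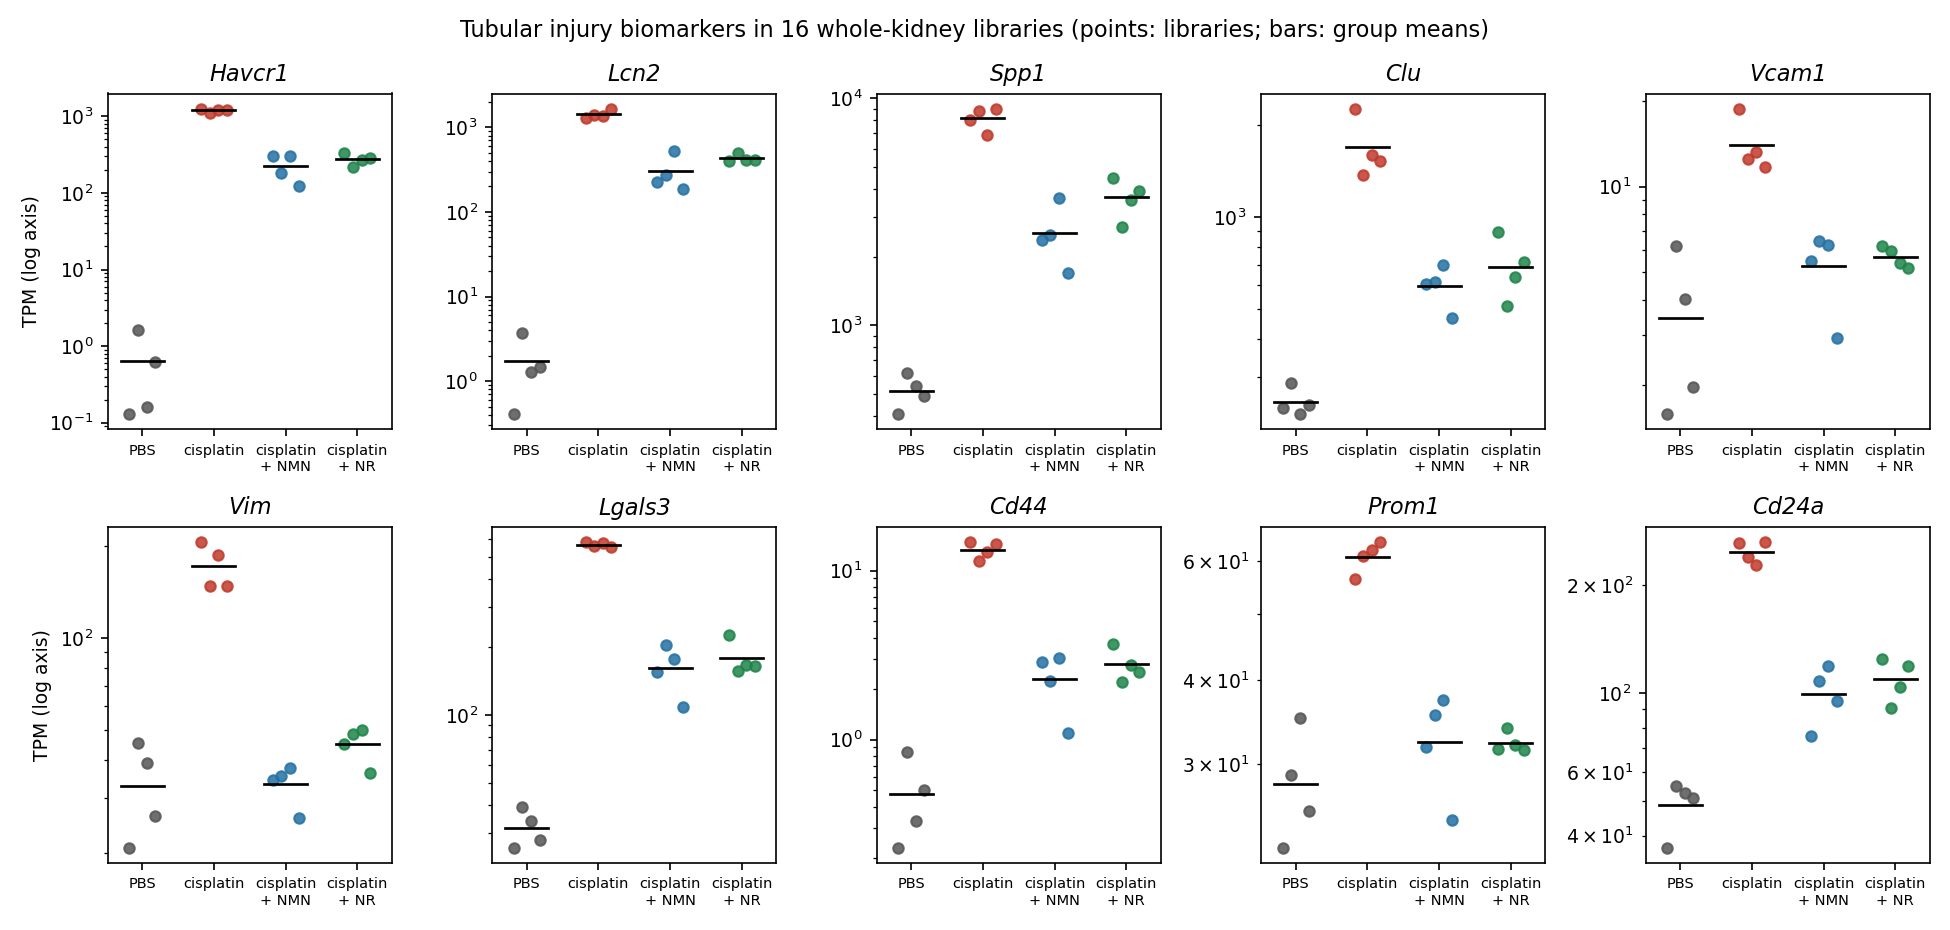
TPM of each of the 10 members in the 16 libraries on a log axis, 1 panel a gene, with 1 point a library and a bar at each group's mean. The 4 cisplatin libraries lie above every other library in each panel, and the NMN and NR libraries overlap each other in all 10.

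Havcr1 (chr11:46735080-46779578, plus strand) went from near 0 to one of the more abundant mRNAs of the set. In PBS libraries 1 to 4 it stood at 0.13, 1.61, 0.16 and 0.63 TPM, and only 1 of them reached 1 TPM. The cisplatin libraries held 1256, 1117, 1224 and 1219 TPM, a tight group with a mean of 1204 ± 60.1 (SD, n = 4). With NMN the level was 301, 181, 308 and 122 TPM, and with NR 337, 217, 272 and 284 TPM. Every library with a precursor thus lay far above every PBS library and far below every cisplatin library, and the NMN and NR ranges overlapped. The log2 difference was 9.61 between cisplatin and PBS (SE 0.28, which holds for each comparison of this gene, adjusted p = 3.47e-14). It was -2.49 between NMN and cisplatin (adjusted p = 1.34e-06) and -2.13 between NR and cisplatin (adjusted p = 9.42e-06). Against PBS it remained at 7.12 with NMN (adjusted p = 1.71e-11) and 7.49 with NR (adjusted p = 7.47e-12).

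Lcn2 (chr2:32384633-32388252, minus strand) moved in parallel. The PBS libraries had 0.41, 3.70, 1.3 and 1.46 TPM, and the cisplatin libraries 1279, 1391, 1364 and 1656 TPM. In the NMN libraries it measured 228, 275, 531 and 186 TPM, so NMN 3 held more than any NR library and the other 3 held less than every NR library. The NR libraries had 405, 496, 411 and 411 TPM. The log2 difference was 9.16 for cisplatin against PBS (SE 0.31, adjusted p = 3.16e-13). Against cisplatin it was -2.33 with NMN (adjusted p = 1.01e-05) and -1.72 with NR (adjusted p = 0.000237). Against PBS it was 6.83 and 7.44 (adjusted p = 2.16e-10 and 6.47e-11). Lrp2 and Slc22a17, which encode reported membrane receptors of this protein, both went the other way with cisplatin. Lrp2 (megalin), the endocytic receptor of the proximal tubule, fell from 104 ± 10.7 TPM with PBS to 14.01 ± 1.56 with cisplatin (adjusted p = 9.59e-12).

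Spp1 (chr5:104435118-104441050, plus strand), which encodes osteopontin, a secreted ligand of integrins and CD44, was the most abundant member in every library. It was already at 406, 615, 539 and 485 TPM with PBS, and rose to 8046, 8827, 6871 and 8997 TPM with cisplatin. The NMN libraries held 2365, 2509, 3625 and 1703 TPM and the NR libraries 4450.2, 2702, 3578 and 3921 TPM. No NMN or NR library overlapped PBS or cisplatin, and the lowest NR library lay above 3 of the 4 NMN libraries. The mean rose 16.003-fold, a log2 difference of 4.01 (SE 0.19, adjusted p = 1.23e-11). It was lower than with cisplatin by -1.73 on the log2 scale with NMN (adjusted p = 1.43e-06) and by -1.18 with NR (adjusted p = 9.72e-05). Against PBS it stayed 4.99-fold higher with NMN and 7.16-fold higher with NR (adjusted p = 3.35e-07 and 1.84e-08). Spp1 made up 53.9 to 57.7% of the 10 members' summed TPM with PBS and 56.6 to 64.2% with cisplatin, so a sum over the members mainly follows this gene.

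Clu (chr14:65968483-65981547, plus strand) encodes clusterin, a secreted chaperone that binds misfolded proteins. Its PBS libraries held 239, 287, 228 and 243 TPM and its cisplatin libraries 2266, 1380.2, 1602 and 1532 TPM. Cisplatin 1 stood above the other 3. With NMN the values were 607, 614, 701 and 467 TPM and with NR 894, 515, 637 and 717 TPM, all between the PBS and cisplatin ranges. The mean was 6.80-fold higher with cisplatin than with PBS (log2 difference 2.74, SE 0.17, adjusted p = 2.34e-10). It was 2.397-fold higher with NMN and 2.77-fold higher with NR than with PBS (adjusted p = 8.64e-05 and 1.11e-05). Against cisplatin the log2 difference was -1.49 with NMN and -1.296 with NR (adjusted p = 1.46e-06 and 8.73e-06).

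The regions upstream of the transcription starts are shown for members that moved together, with patterns of injury-activated factors searched on both strands in the 250 bases before each start. RefSeq starts on GRCm38.p6 were on hand for 7 of the 10 members, in 11 windows; Clu, Vcam1 and Cd24a had none. The patterns were TGANTCA for AP-1, TTCNNNGAA for STAT, GGG and CC with any 5 bases between for NF-kB and TATAAA for a TATA box. Capitals below mark the matches to these patterns, and all lines run 5′ to 3′ on the gene's strand.
Havcr1 upstream of its start at base 46750511, chr11:46750261-46750510, plus strand: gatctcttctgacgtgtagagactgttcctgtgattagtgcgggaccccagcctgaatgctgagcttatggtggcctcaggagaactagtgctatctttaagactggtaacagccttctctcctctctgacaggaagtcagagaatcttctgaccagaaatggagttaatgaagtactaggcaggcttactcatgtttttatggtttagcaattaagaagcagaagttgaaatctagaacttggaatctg
Spp1 upstream of its start at base 104435111, chr5:104434861-104435110, plus strand: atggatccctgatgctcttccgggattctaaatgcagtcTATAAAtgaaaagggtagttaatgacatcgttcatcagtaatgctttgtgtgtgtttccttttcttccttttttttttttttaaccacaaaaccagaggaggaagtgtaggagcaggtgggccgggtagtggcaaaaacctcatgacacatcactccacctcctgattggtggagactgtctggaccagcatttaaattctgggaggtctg
Cd44 upstream of its start at base 102901665, chr2:102901666-102901915, minus strand: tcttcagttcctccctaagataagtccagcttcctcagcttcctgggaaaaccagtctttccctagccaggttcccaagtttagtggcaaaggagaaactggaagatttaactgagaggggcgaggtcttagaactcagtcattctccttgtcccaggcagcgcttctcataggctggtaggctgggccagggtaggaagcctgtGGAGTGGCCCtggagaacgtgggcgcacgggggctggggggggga
Lcn2 around its NF-kB pattern, chr2:32387824-32387849, minus strand: taaaggatGGACTACCCCgcccaaca
Prom1 upstream of its start at base 44094768, chr5:44094769-44095018, minus strand: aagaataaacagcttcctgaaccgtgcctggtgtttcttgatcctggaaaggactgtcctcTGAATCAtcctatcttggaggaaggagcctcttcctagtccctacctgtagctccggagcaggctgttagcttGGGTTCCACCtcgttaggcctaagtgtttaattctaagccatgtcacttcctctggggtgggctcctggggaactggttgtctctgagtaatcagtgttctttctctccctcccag
No pattern matched in the Havcr1 window. The Spp1 window held TATAAA at bases -211 to -206 from the start, farther upstream than a TATA box usually lies. The other TATAAA match was at -32 to -27 from the Vim start, in a window wholly inside an annotated exon that is not shown. Cd44 had the NF-kB pattern at -45 to -36, Lcn2 at -102 to -93, and the Prom1 window held the AP-1 pattern at -189 to -183 and the NF-kB pattern farther down. The other Prom1 start, at base 44101736, also had an AP-1 pattern, at -88 to -82, in a window that lies wholly inside an annotated exon and is not shown. Across the 11 windows, AP-1 was found in 2, STAT in 0, NF-kB in 6 and TATAAA in 2. Of 32851 windows of all genes, 6.75%, 7.02%, 45.8% and 12.4% held them. The NF-kB pattern is thus common in any promoter. A match describes letters, not a bound site, and a missing match says only that the letters are not in this window.

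Lgals3 (chr14:47367751-47386160, plus strand) encodes galectin-3, a lectin that binds β-galactosides on cell surfaces and matrix. It measured 25.9, 39.2, 34.0 and 28.0 TPM with PBS and 580.4, 559, 578 and 550.4 TPM with cisplatin. The cisplatin libraries lay close together, at 567 ± 14.6 TPM (n = 4). The NMN libraries had 155, 204, 177 and 108 TPM and the NR libraries 226, 157, 166 and 165 TPM, all clear of PBS and of cisplatin. The mean rose 17.8-fold with cisplatin (log2 difference 4.13, SE 0.17, adjusted p = 8.88e-13). Against cisplatin the log2 difference was -1.85 with NMN and -1.68 with NR (adjusted p = 1.13e-07 and 4.59e-07). Against PBS the level stayed 5.06-fold higher with NMN and 5.62-fold higher with NR (adjusted p = 4.86e-08 and 1.63e-08). Lgals3bp, a secreted glycoprotein that binds galectin-3, rose from 32.3 ± 7.47 to 227 ± 30.4 TPM with cisplatin (adjusted p = 1.07e-10).

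Cd44 (chr2:102811141-102901665, minus strand), the receptor for hyaluronan and for osteopontin, was scarce in PBS kidneys, at 0.23, 0.84, 0.33 and 0.50 TPM. With cisplatin it reached 14.7, 11.5, 12.8 and 14.3 TPM. The NMN libraries held 2.86, 2.21, 3.02 and 1.09 TPM, and the NR libraries 3.67, 2.18, 2.77 and 2.52 TPM. The lowest of these, NMN 4, was still above the highest PBS library. On the log2 scale the differences were 3.29 for cisplatin against PBS (SE 0.21, adjusted p = 2.43e-10), -2.16 for NMN and -1.93 for NR against cisplatin (adjusted p = 1.88e-07 and 9.09e-07). Against PBS they were 1.13 and 1.36 (adjusted p = 0.00149 and 0.000177). Hyaluronan synthases Has1, Has2 and Has3 did not reach the minimum for testing.

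With a precursor, Vim and Vcam1 lay at levels that overlapped PBS. Vim (chr2:13573927-13582826, plus strand) encodes vimentin, an intermediate filament of mesenchymal cells and of tubule cells that have lost their epithelial form. Its PBS libraries held 20.8, 45.3, 39.3 and 26.3 TPM and its cisplatin libraries 205, 148, 187 and 147 TPM. With NMN it measured 34.5, 35.4, 37.8 and 26.0 TPM, inside the PBS range, and with NR 45.3, 48.8, 50.1 and 36.5 TPM, across the top of it. The log2 difference was 2.397 for cisplatin against PBS (SE 0.20, adjusted p = 1.22e-08), and -2.33 and -1.90 for NMN and NR against cisplatin (adjusted p = 6.33e-08 and 8.75e-07). Against PBS it was 0.07 with NMN (95% interval -0.35 to 0.49, adjusted p = 0.92) and 0.50 with NR (0.07 to 0.92, adjusted p = 0.144). The NR value was called when PBS 2 was left out (0.67, adjusted p = 0.0353). Plec, which encodes the filament linker plectin, rose from 6.40 to 30.8 ± 3.62 TPM with cisplatin (adjusted p = 3.26e-09).

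Vcam1 (chr3:116109949-116129688, minus strand), an adhesion molecule that binds integrin α4β1 on leukocytes, measured 1.58, 6.16, 4.03 and 1.96 TPM with PBS, a wide spread for its mean (3.43 ± 2.11). The cisplatin libraries held 18.8, 12.5, 13.2 and 11.7 TPM. With NMN it was 5.48, 6.43, 6.22 and 2.93 TPM and with NR 6.18, 5.95, 5.36 and 5.17 TPM. Both groups overlapped PBS 2 and lay below every cisplatin library. The mean rose 4.09-fold with cisplatin (log2 difference 1.86, SE 0.27, adjusted p = 1.31e-05). Against cisplatin the log2 difference was -1.29 with NMN and -1.16 with NR (adjusted p = 0.000836 and 0.0022). Against PBS it was 0.58 with NMN (95% interval 0.00109 to 1.16, adjusted p = 0.303) and 0.71 with NR (0.13 to 1.28, adjusted p = 0.123). Without PBS 2 the NR value was called (0.98, adjusted p = 0.0163). Icam1, which encodes another leukocyte adhesion molecule, rose from 7.11 ± 1.96 to 62.5 ± 4.36 TPM with cisplatin (adjusted p = 3.23e-10). It stayed higher than with PBS in both precursor groups, at 23.1 ± 6.66 TPM with NMN and 28.6 ± 3.28 with NR (adjusted p = 2.72e-05 and 1.82e-06).

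Prom1 and Cd24a encode CD133 and CD24, surface proteins that together mark scattered tubular cells in human kidney. Prom1 (chr5:43993620-44102032, minus strand) changed least of the 10. It stood at 22.6, 28.9, 35.2 and 25.5 TPM with PBS and 56.4, 61.1, 62.3 and 64.0 TPM with cisplatin. With NMN it measured 31.8, 35.4, 37.3 and 24.8 TPM and with NR 31.6, 33.9, 32.0 and 31.5 TPM, so that every library with a precursor but NMN 2 and NMN 3 lay inside the PBS range. The log2 difference was 1.11 for cisplatin against PBS (SE 0.14, adjusted p = 1.59e-06), and -0.91 and -0.90 for NMN and NR against cisplatin (adjusted p = 2.93e-05 and 4.11e-05). Against PBS it was 0.20 with NMN (95% interval -0.09 to 0.49, adjusted p = 0.53) and 0.21 with NR (-0.07 to 0.50, adjusted p = 0.397).

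Cd24a (chr10:43578284-43584265, plus strand) was at 37.1, 54.9, 52.6 and 50.8 TPM with PBS and at 261, 239, 227 and 263 TPM with cisplatin. The NMN libraries had 75.7, 108, 119 and 94.7 TPM and the NR libraries 124, 90.6, 104 and 118 TPM. None of these overlapped PBS or cisplatin. The mean rose 5.06-fold with cisplatin (log2 difference 2.33, SE 0.15, adjusted p = 2.41e-10). Against cisplatin the log2 difference was -1.33 with NMN and -1.18 with NR (adjusted p = 9.54e-07 and 4.59e-06). The mean stayed 2.03-fold above PBS with NMN and 2.24-fold with NR (adjusted p = 0.000172 and 2.61e-05). Prom1 and Cd24a therefore parted in their distance from PBS, the former overlapping it and the latter not; the difference between the genes was not tested.

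**Figure D2:**
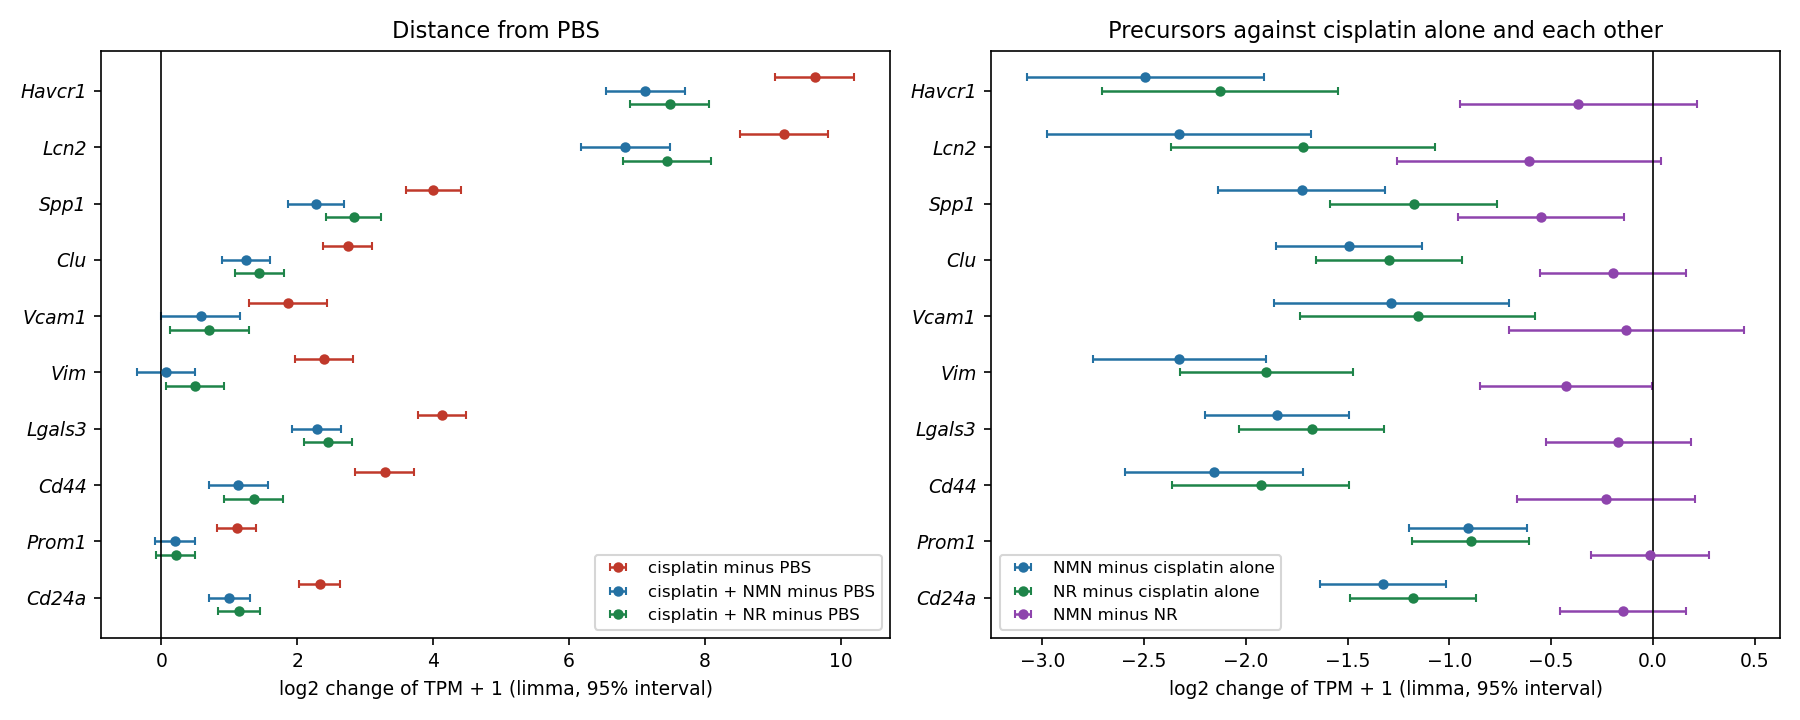
Difference of log2(TPM + 1) on the horizontal axis for each member, as points with 95% intervals from limma, with the differences from PBS on the left and the others on the right. Cisplatin against PBS runs from 1.11 (Prom1) to 9.61 (Havcr1), and every interval against PBS with a precursor lies above 0 but those of Vim with NMN and Prom1 with either.

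The members' median log2 difference was 3.01 for cisplatin against PBS, where the median of all tested genes was 0.27. Against cisplatin it was -1.79 with NMN and -1.49 with NR, beside -0.23 and -0.20 for all genes. Against PBS it was 1.19 and 1.40, beside 0.04 and 0.06. The shift of all genes depended on the scaling. After median-of-ratios scaling the cisplatin against PBS median was 0.0017, and called genes were 50.6% higher in place of 68.6%. That scaling sets the median ratio of each library to a common level, so the small median follows from it. What lies behind the shift was not tested. All members kept their calls under that scaling, and the smallest of them, Prom1, then rose by 0.80 (adjusted p = 1.8e-05).

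NMN and NR were compared directly to ask whether either precursor left the markers lower. No member was called (0 of 12960 genes, or 0%, were called, and 370 genes, or 2.85%, had an unadjusted p under 0.05), and the libraries of the precursor groups overlapped for all 10, where 1.64% of genes did not overlap. The log2 difference was below 0 for 10 of 10 members, against 54.4% of all tested genes, and the NR mean in TPM was the higher one for 9 of 10, all but Prom1. Their median was -0.21, beside -0.02 for all genes. Members share their libraries, so this shared sign is not 10 separate results. The widest gap was Lcn2 at -0.61 (95% interval -1.26 to 0.04), followed by Spp1 at -0.55 (-0.96 to -0.14, unadjusted p = 0.0113, adjusted p = 1.00; exact permutation p = 0.0857). Vim differed by -0.43 (-0.85 to -0.00294, unadjusted p = 0.0486, adjusted p = 1.00; exact permutation p = 0.0571). With 4 against 4 libraries the smallest two-sided p of the exact test is 0.0286. For Havcr1 the interval ran from -0.95 to 0.22 and for Prom1 from -0.30 to 0.28, so a difference of such a size in either direction is not shown to be absent.

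How much of the cisplatin-associated difference was missing with a precursor depended on the scale. In TPM, the share absent with NMN ran from 73.4% ± 10.4 for Spp1 to 99.7% ± 3.70 for Vim (SD over 4 libraries). With NR it ran from 58.9% ± 9.57 for Spp1 to 91.2% ± 4.42 for Vim. Havcr1, at 81.1% ± 7.61 and 77.0% ± 4.08, and Lcn2, at 78.6% ± 10.9 and 69.8% ± 3.07, lay in the same band as the others. On the log2 scale the same libraries gave 25.9% and 22.1% for Havcr1 and 25.4% and 18.8% for Lcn2, the lowest of the 10. Vim still gave 97.1% with NMN and 79.2% with NR, and Prom1 81.9% and 80.7%. Havcr1 with a precursor thus lacked most of the cisplatin difference in TPM while every library with a precursor still held at least 122 TPM and no PBS library more than 1.61. Cd44 at 85.8% ± 6.83 and 82.0% ± 4.97 in TPM, and Cd24a at 74.6% ± 9.32 and 69.6% ± 7.58, were closer on both scales, at 65.6% and 58.6%, and 56.9% and 50.6%, in log2. The shares use the same cisplatin and PBS means for both precursors and are a description.

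**Figure D3:**
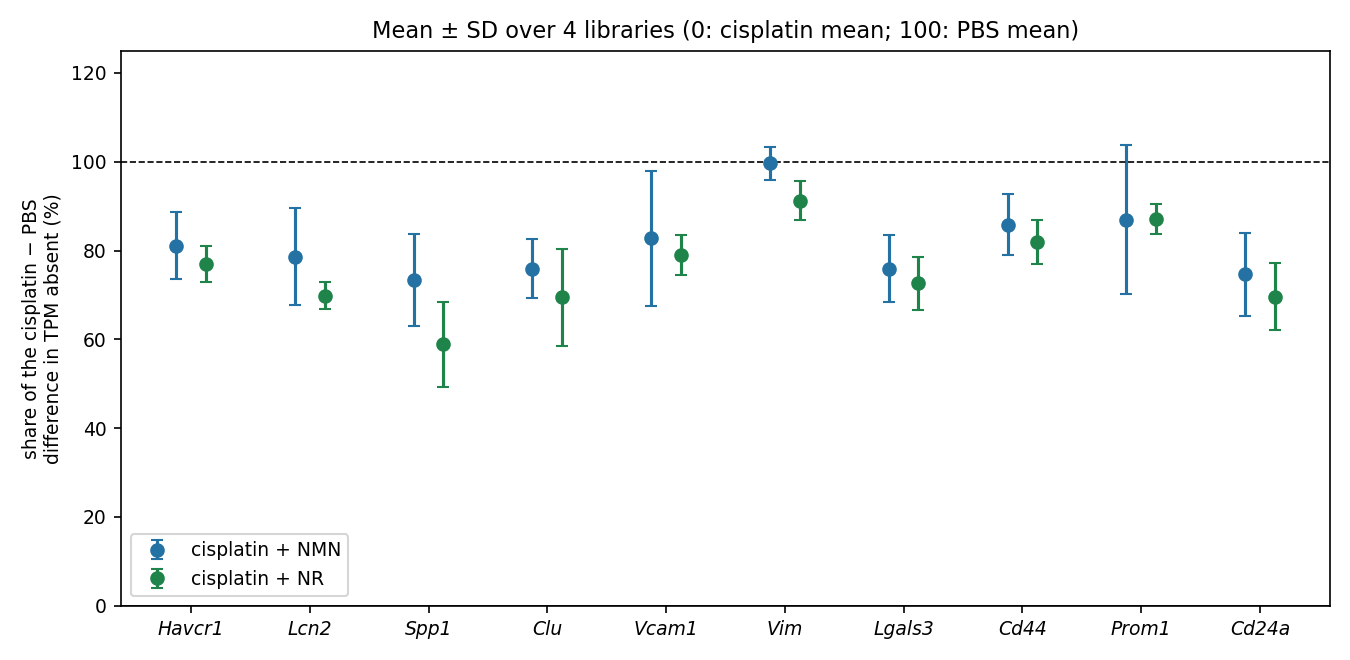
Percent of the cisplatin minus PBS difference in TPM that was absent with NMN (blue) and with NR (green), for each member on the horizontal axis, as the mean and SD of 4 libraries. All means lie between 58.9% (Spp1 with NR) and 99.7% (Vim with NMN), where 0 is the cisplatin mean and the dashed line the PBS mean.

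Within groups most markers deviated in the same direction in a library, least evenly with cisplatin. PBS 2 was the highest PBS library for 9 of 10 members and PBS 1 the lowest for 9. NMN 3 was the highest NMN library for 8 members and NMN 4 the lowest for 9. NR 1 was the highest NR library for 7, while NR 2 was the lowest for 6 and the highest for 2. With cisplatin the ends were more mixed. Cisplatin 1 was the highest for 6 and the lowest for 2, and cisplatin 4 the highest for 4 and the lowest for 3. Cisplatin 2 was the lowest for 3 and cisplatin 3 the lowest for 2. Deviations of log2(TPM + 1) from the group means gave a Pearson r above 0 for all 45 pairs of members over 16 libraries, above 0.5 for 34 of them, with a median of 0.62. The closest pairs were Havcr1 with Cd44 (r = 0.92) and Vcam1 with Vim (0.92), and the loosest was Clu with Prom1 (0.12). Points in these correlations share their library and its total, so they are given with no test. The median r of a member with the 8937 genes averaging at least 5 TPM was 0.08 to 0.35. The r with the library's mitochondrial share ran from 0.004 for Clu to -0.75 for Vim, with Lcn2 at -0.69, Prom1 at -0.64 and Vcam1 at -0.63; the part of that share in the pairs was not tested.

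**Figure D4:**
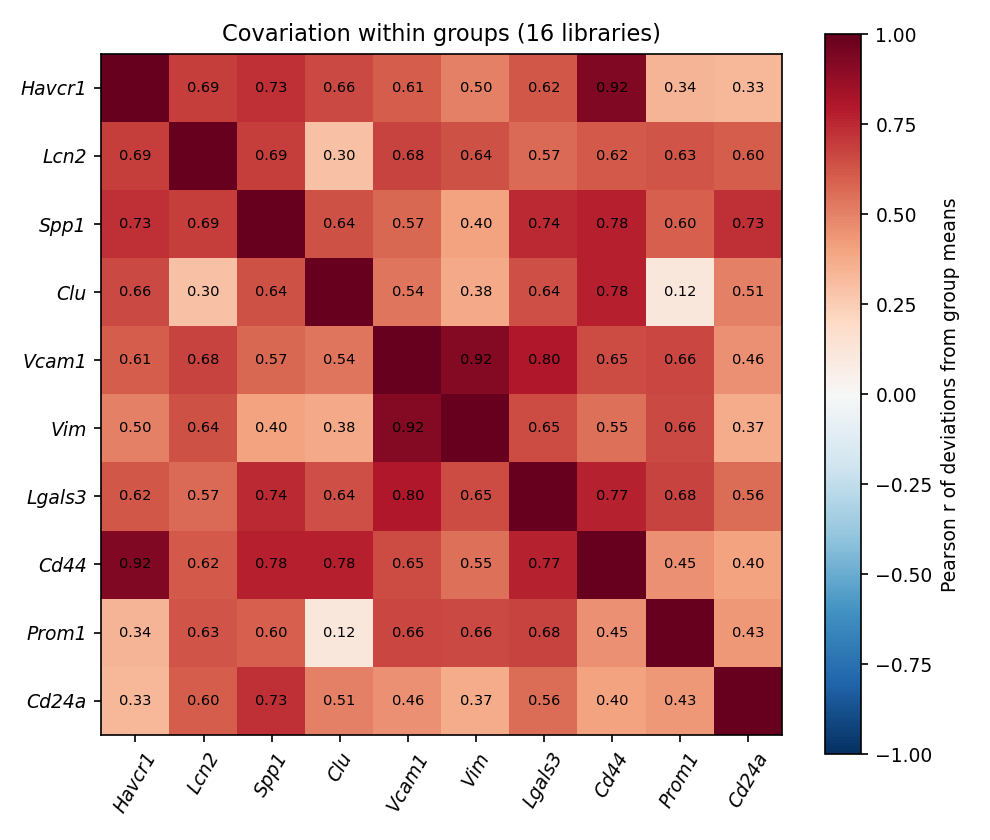
Pearson r between members of their deviations of log2(TPM + 1) from the group means, over 16 libraries. All 45 pairs are above 0, from 0.12 (Clu with Prom1) to 0.92 (Havcr1 with Cd44).

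Over the same 16 libraries, the gene whose deviations were most like those of Havcr1 was Cpe (r = 0.93), and for Lcn2 it was Esyt1 (0.90). Spp1 was closest to Tubb2a (0.93), Clu to Cldn4 (0.92), which encodes a tight junction protein, and Lgals3 to Bcr (0.90), with Atf3, a stress-induced transcription factor, next (0.89). Cd44 was closest to Smpdl3b (0.94), which was also among the closest for Havcr1 (0.92). Vim lay nearest to Ptp4a3 (0.93), Vcam1 to Eef1g (0.95), a subunit of a translation elongation factor, and Cd24a to Capn2 (0.96). Prom1 was closest to Gdf15 (0.93), which encodes a stress-induced cytokine. With so many genes compared, high values are found for any gene, and the likeness carries no test.

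Other urinary and plasma biomarkers of kidney injury did not share 1 direction. Of 17 tested, 8 rose with cisplatin, 6 fell and 3 were not called, with a median log2 difference of 0.22 beside 0.27 for all genes. Among all 12960 genes tested, 5278 (40.7%) were called higher with cisplatin and 2415 lower. Gdf15 rose from 4.798 ± 1.58 to 384 ± 19.4 TPM (adjusted p = 9.92e-14), Cyr61, a matricellular protein gene, from 16.5 ± 2.66 to 155 ± 20.1 TPM (adjusted p = 3.58e-11). Fibrinogen chains rose as well, Fgg from 5.03 ± 0.558 to 453 ± 167 TPM and Fgb from 0.265 ± 0.042 to 18.6 ± 3.74 TPM (adjusted p = 2.00e-10 and 3.26e-10). These 4 and Fga stayed higher than with PBS in both precursor groups. No gene of the list was called lower than with PBS, though some means were lower, such as Calb1 at 96.0 TPM with NMN and 92.1 with NR. Among those that fell were Egf, from 209 ± 90.6 to 8.41 ± 2.90 TPM, and Calb1, from 135 ± 20.3 to 16.4 ± 4.20 TPM (adjusted p = 3.97e-08 and 6.55e-10); both are made in distal segments and were named after their values were seen. Fabp1, Il18 and Umod, which are in clinical use or study as urine markers, were not called (adjusted p = 0.82, 0.359 and 0.359). Umod was at 568 ± 298 TPM with PBS and 401 ± 194 with cisplatin, a spread too wide to show a change of that size.

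Genes of dedifferentiated and repairing tubule epithelium moved in the direction of the members. Of 20 tested, 18 rose with cisplatin, 1 fell (Itgb8, from 15.0 ± 3.74 to 4.93 ± 0.487 TPM, named after its value was seen) and 1 was not called (Dcdc2a, adjusted p = 0.0666). Their median log2 difference was 2.92, beside 0.27 for all tested genes, of which 40.7% were called higher. Krt20 went from 0.03 ± 0.0424 to 853 ± 102 TPM, and stood at 137 ± 54.5 with NMN and 162 ± 27.6 with NR. Cdkn1a, which encodes the cell cycle inhibitor p21, went from 2.59 ± 1.02 to 783 ± 85.7 TPM, Krt18 from 9.66 ± 2.44 to 241 ± 14.4 TPM and Plaur, the urokinase receptor gene, from 2.17 ± 0.730 to 116 ± 17.5 TPM. All 4 had an adjusted p of 1.87e-12 or less. With NMN 19 of the 20 were lower than with cisplatin and with NR 18, while 13 stayed higher than with PBS in each. Of all tested genes, 34% with NMN and 32.2% with NR were lower than with cisplatin. Higher than with PBS were 5.89% and 8.79%.

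Ligands, receptors and partners of the members were mixed. Of 28 listed, 20 could be tested, and with cisplatin 10 rose, 5 fell and 5 were not called, with a median of 0.49. Of all 12960 genes tested, 5278 (40.7%) were called higher with cisplatin and 2415 lower, so these counts are near those of all genes. The integrin chains that bind osteopontin differed: Itgav rose from 16.5 ± 2.71 to 86.2 ± 19.2 TPM and Itgb1 from 48.6 ± 7.71 to 143 ± 14.5 TPM. Itgb5 fell from 50.3 ± 7.19 to 35.2 ± 3.70 TPM and Itga8 from 2.07 ± 0.656 to 0.07 ± 0.0787 TPM (adjusted p = 0.00235 and 0.000142), and these integrins were named after their values were seen. The other genes that fell were Lrp2, Slc22a17 and Des, of which Slc22a17 encodes another reported receptor of the Lcn2 protein (18.9 ± 1.37 to 13.9 ± 3.51 TPM, adjusted p = 0.0269). Itga9, Itgb7, Vldlr and Hyal2 were among those not called. Itga4, the α4 chain of the Vcam1 partner, did not reach the minimum for testing, with means of 0.28 to 0.58 TPM. The receptor Lrp2 measured 81.6 ± 13.7 TPM with NMN, not called against PBS (adjusted p = 0.179), and 76.2 ± 13.4 with NR, where it was still lower than with PBS (adjusted p = 0.0449).

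Several members are also made by cells other than the tubule, so markers of those cells were read in the same libraries. In whole kidney, fewer cells of a type and less RNA per cell cannot be told apart. Of the 12960 genes tested, 2415 were called lower with cisplatin than with PBS. Against cisplatin, 1954 were called higher with NMN and 1870 with NR. The 10 proximal tubule markers summed to between 5012 and 5522 TPM with PBS and 271 and 366 with cisplatin, where all 10 fell, and to 3619 to 4553 with NMN and 3519 to 3896 with NR, where all 10 were higher than with cisplatin. The 10 endothelial markers, cells that can make Vcam1 and Vim, summed to 134 to 254 TPM with PBS, 35.3 to 95.3 with cisplatin, 108 to 198 with NMN and 129 to 205 with NR, and all 10 fell with cisplatin. Of 9 tested fibroblast and pericyte markers, cells that make Vim, 8 fell with cisplatin, from a sum of 85.9 to 234 TPM to one of 45.9 to 87.7. Most markers of both cell types fell with cisplatin while Vim and Vcam1 rose, and the part of these cells in the members' changes was not tested.

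Macrophage markers, from cells that make Lgals3, Spp1 and Cd44, summed to 50.1 to 122 TPM with PBS, 131 to 230 with cisplatin, 78.0 to 154 with NMN and 104 to 117 with NR. The rise was carried by Cd68, which went from 3.48 ± 2.10 to 105 ± 11.3 TPM; of the 9 tested, it was the only one that rose, while Csf1r and C1qc fell. Neutrophil markers, from cells that store the Lcn2 protein, summed to 2.24 to 12.6 TPM with PBS and 6.11 to 24.4 with cisplatin; Mpo and Camp were listed at 0 in all libraries of both groups and none of the 4 tested was called. Adipose markers moved with the members for cisplatin and NMN but not clearly for NR. Their sum was 25.2 to 124 TPM with PBS, 210 to 402 with cisplatin, 25.6 to 104 with NMN and 23.2 to 391.7 with NR. All 6 tested rose with cisplatin, and against cisplatin 5 were called lower with NMN and 0 with NR. Their part in the members' changes was not tested. After seeing the data, NR 3 and NR 4, or PBS 1, cisplatin 1 and cisplatin 3, were left out. Members called stayed at 10, 10, 10, 7, 7 and 0. Genes called in the members' direction were 5188, 4318, 3387, 712, 641 and 0 of 12854 for the former. For the latter they were 4050, 3648, 3348, 505, 805 and 0 of 12686. Every cisplatin library left in had a higher adipose sum than every PBS library, so these settings cannot tell adipose tissue and cisplatin apart.

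**Figure D5:**
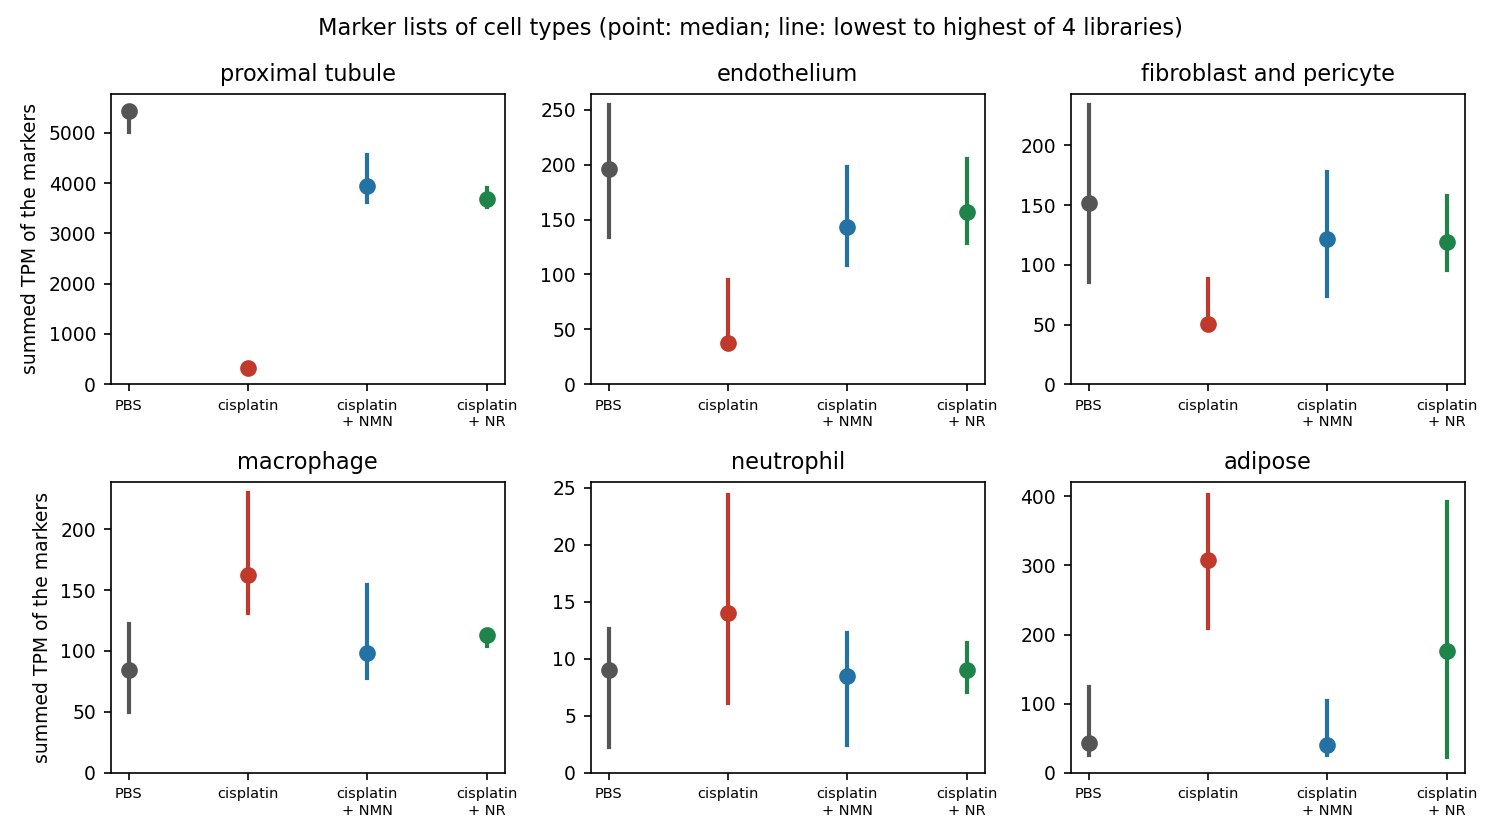
Summed TPM of marker genes of 6 cell types by group, 1 panel a cell type with its own linear axis from 0, with the median of 4 libraries as a point and their lowest to highest as a line. Proximal tubule and endothelial sums are lowest with cisplatin, while the macrophage sum with cisplatin, at 131 to 230 TPM, has the highest median of the groups but overlaps NMN.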

How the data were processed

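The authors deposited TPM with 2 decimals for 23982 entries in 16 libraries; counts and read depth are not part of it, so no counting interval can be given. The submitters' processing notes name DESeq2 1.10.1, HTSeq 0.6.1, STAR 2.4.1d and Trim Galore, and the builds mm10 and GRCm38, without their roles; the sources used here give neither gene lengths nor a strand setting. Because each library's TPM total is fixed, genes can gain when abundant transcripts drop. Groups came from the treatment labels. The 94 entries sharing a symbol were summed (23935 symbols).

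Tested were the 12960 genes that reached 1 TPM in 4 or more of 16 libraries, which all 10 members did; Havcr1, Lcn2 and Cd44 owed this to the groups with cisplatin. Means of log2(TPM + 1) in the 4 groups were fitted, leaving 12 residual degrees of freedom, in limma 3.58.1 (R 4.3.3, statmod 1.5.0; trend and robust), and p-values were Benjamini-Hochberg adjusted over all tested genes. The fit was also run on simulated data in which few genes changed. Those data hold no shift of all genes, so that run says nothing on the effect of the scaling. The members, lists and tests were chosen with earlier results of these data known. Named by rule were the members, each member's 3 genes of highest r (of which the first and a few others are printed), and from each list the 4 smallest adjusted p for cisplatin against PBS and the genes not called, of which 1 is not reported here. Alternatives were another pseudocount, other minimums, scalings and limma settings, no mitochondrial genes, only the groups compared, a replicate block, and each library left out. Promoter letters are RefSeq's, on GRCm38.p6. Figures used matplotlib 3.10.9.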

Additional observations from a re-analysis of the deposited data

Results flagged for a closer look

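In 40 groups of 4 libraries (10 members in 4 groups), 2 held a library far from the other 3 on the log2(TPM + 1) scale, where chance gives about 1 in 20. Lcn2 stood at 495.87 TPM in NR 2, above the other NR libraries at 405 to 411 TPM. Lgals3 stood at 226.33 TPM in NR 1, above the others at 157 to 166 TPM.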

How the results depend on the processing

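All 10 members kept their calls for cisplatin against PBS and for NMN and NR against cisplatin under every alternative run. With each library left out in turn, members called were 10 to 10 in each of these, 7 to 7 for NMN against PBS, 7 to 9 for NR against PBS (9 without PBS 2, where Vcam1 was at 0.98 and Vim at 0.67) and 0 to 0 for NMN against NR. The genes called then ranged from 7186 to 7682, 5656 to 6505, 5372 to 6139, 511 to 925 (511 without NMN 3), 982 to 1326 and 0 to 1. Genes called for NR against PBS fell to 698 without NR 3 and NR 4, a setting chosen after seeing the data, and for NMN against NR there was 1 with only the groups compared; the cause was not tested. Among 1560 member values under an alternative 8 changed sign, none of them called. With 1 library left out, Vim for NMN against PBS ranged from -0.12 (without PBS 1) to 0.24, and was at -0.12 without PBS 1, cisplatin 1 and cisplatin 3. For NMN against NR, Prom1 ranged from -0.086 to 0.10, Vcam1 from -0.23 to 0.08 and Lgals3 from -0.29 to 0.0078, each highest without NMN 4, and Prom1 was at 0.015 under median-of-ratios scaling. Among 380 share values, 23 moved by more than 1 SD. These values include the log2 scale, where the share of Havcr1 with NMN was 25.9% in place of 81.1%. Under the other alternatives that share ranged from 77.6 to 83.3%. Median-of-ratios scaling changed the higher part of called genes from 30.7 to 48.8% for NMN and 30.9 to 48.8% for NR against cisplatin, and from 98.1 to 89.0% and 87.9 to 68.4% against PBS.

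Libraries carry the same replicate numbers in each group, but no label says what a number marks. Same-numbered libraries correlated at -0.13 to 0.29, above 0.1 in 9 of 24 pairs and not in every pair of any comparison, so the numbers were not taken to pair samples. The best match was to the same number in 29 of 48 cases, more than the 1 in 4 of numbers without meaning, which is a hint of pairing from the data, not from the design. With a replicate block, members called stayed at 10, 10, 10, 7, 7 and 0, with 7839, 6507, 6184, 862, 1478 and 0 genes called. Depth is unknown for TPM, so low values such as those of Havcr1, Lcn2 and Cd44 with PBS have a counting error that cannot be computed.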
